A study of Mus musculus with 28 samples.

Results

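Scavenger and alternative-activation genes of macrophages were followed in bulk RNA-sequencing of mouse tail tendon fascicles. The 10 genes were *Cd163*, *Mrc1*, *Retnla*, *Mgl2*, *Clec10a*, *Folr2*, *Lyve1*, *Siglec1*, *F13a1* and *Stab1*, given as a list and found by symbol among the 25719 genes counted. They were picked with the differences between genotypes at each stage already known, so those differences are given as a description, and counts of members called in them restate the choice and are no independent test. Homogenates of fascicles were sequenced from 28 C57BL/6 mice, 1 library per mouse. Fosl-2(Tg) mice carry a randomly inserted *Fosl2* transgene of mouse origin, coding for the AP-1 family member Fosl-2, under the MHC class I promoter H2Kb, with eGFP joined to it through a 2A peptide. WT controls were non-transgenic mice of the same breeding, and no mouse received a treatment. The early cohort (6 to 8 weeks of age) held 7 WT and 8 Fosl-2(Tg) mice, all male. The established cohort (older than 14 weeks) held 6 WT and 7 Fosl-2(Tg) mice, of which 11 were female and 1 of each genotype was male. Stage, age and sex can therefore hardly be told apart. The class I promoter is active in most cell types, so the transgene is not restricted to tendon cells or to macrophages.

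Macrophages that settle in connective tissues clear debris, dying cells and matrix fragments, and carry scavenger and lectin receptors for that task. The cytokines IL-4 and IL-13 signal through the IL-4 receptor and the transcription factor STAT6 and drive alternative activation, a state in which macrophages express lectins and secreted proteins such as RELM-alpha. Genes of both programmes overlap in resident macrophages of fascia, skin and tendon, and they are often counted together as markers of tissue repair and fibrosis.

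The members fall into 3 roles. *Cd163* encodes the receptor for haptoglobin-hemoglobin complexes, *Stab1* a clearance receptor for modified proteins, *Siglec1* the sialic acid-binding lectin sialoadhesin, *Folr2* folate receptor beta and *Lyve1* a hyaluronan receptor that lymphatic endothelium carries too. *Mrc1* (mannose receptor), *Clec10a* and *Mgl2* (both galactose-type lectins, known as CD301a and CD301b) bind sugars on ligands that are taken up. *Retnla* encodes the secreted protein RELM-alpha, a classical target of IL-4 and IL-13, and *F13a1* the A subunit of coagulation factor XIII, a transglutaminase that also platelets contain. In the annotation of GENCODE release M39 on GRCm39, all 10 are protein-coding genes. *Cd163* lies at chr6:124281606-124307560 on the plus strand, *Mrc1* at chr2:14234151-14336926 on the plus strand and *Retnla* at chr16:48662895-48664824 on the plus strand. *Mgl2* (chr11:70020954-70028376) and *Clec10a* (chr11:70047023-70061660) are neighbours on the plus strand. *Folr2* (chr7:101489195-101506401), *Lyve1* (chr7:110448585-110462460), *Siglec1* (chr2:130911140-130928685), *F13a1* (chr13:37051152-37234277) and *Stab1* (chr14:30860970-30890598) lie on the minus strand. Of all stretches of 100 bases in their transcripts, 3.25% of those of *Mgl2* also occurred in *Clec10a* and 2.64% of those of *Clec10a* in *Mgl2*, so few reads could be split between them. *Folr2* overlaps the antisense gene *Gm10602* over 975 of its 1593 exonic bases, and without a stated strand setting reads from both cannot be told apart. For *Retnla*, *Cd163*, *Mrc1*, *Lyve1* and *F13a1* no stretch was shared with another gene.

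Promoters from RefSeq (build GRCm38.p6, 250 bases before to 50 bases after a start site) were held for 7 members, with 9 promoters. Those of *Retnla* and *Mgl2*, the pair that varied together most closely between mice, and the *Folr2* promoter with an AP-1 motif, the motif that Fosl-2 binds with its partners, are shown. Matches to the searched motifs are in capitals.
Retnla, chr16:48842359-48842658, plus strand: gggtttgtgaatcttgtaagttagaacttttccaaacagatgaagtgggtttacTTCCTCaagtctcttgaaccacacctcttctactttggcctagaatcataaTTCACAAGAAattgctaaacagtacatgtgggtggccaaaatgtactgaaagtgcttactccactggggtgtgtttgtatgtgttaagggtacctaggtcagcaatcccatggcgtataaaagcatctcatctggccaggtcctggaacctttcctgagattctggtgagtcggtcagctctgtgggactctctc
Mgl2, chr11:70130107-70130406, plus strand: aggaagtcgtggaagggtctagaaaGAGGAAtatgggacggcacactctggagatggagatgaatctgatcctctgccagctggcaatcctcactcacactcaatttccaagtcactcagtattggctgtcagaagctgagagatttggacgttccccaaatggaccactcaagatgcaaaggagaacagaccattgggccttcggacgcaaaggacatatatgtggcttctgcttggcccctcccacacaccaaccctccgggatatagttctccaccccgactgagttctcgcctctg
Folr2, chr7:101845282-101845581, minus strand: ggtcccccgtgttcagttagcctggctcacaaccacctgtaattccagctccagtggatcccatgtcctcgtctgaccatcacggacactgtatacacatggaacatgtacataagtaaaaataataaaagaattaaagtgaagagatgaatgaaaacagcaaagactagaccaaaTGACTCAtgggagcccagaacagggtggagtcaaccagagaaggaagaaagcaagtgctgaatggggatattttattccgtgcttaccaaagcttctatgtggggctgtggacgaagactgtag
Both strands were searched for AP-1 (TGANTCA), for STAT6 (TTC and GAA separated by any 4 bases), for C/EBP (TTGC, any base, CAA) and for PU.1 (GAGGAA). Of 32851 RefSeq promoters, 7.81% held the AP-1 letters, 6.95% the STAT6 letters, 2.94% the C/EBP letters and 28.3% the PU.1 letters. The AP-1 letters occurred in 1 of the 7 members, *Folr2* (TGACTCA, first base at -74 from the start site). The STAT6 letters occurred in 1, *Retnla* (TTCACAAGAA, first base at -145). The PU.1 letters occurred in 5 members (*Mrc1*, *Mgl2*, *F13a1*, *Stab1* and *Retnla*) and the C/EBP letters in 0. No matches of different motifs overlapped in these promoters. Such matches describe letters and not sites of binding.

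Gene totals ranged from 9645598 to 66894396 reads per mouse. Tenocyte markers were present in all mice, and the summed level of 8 markers ranged from 187412 to 541073 CPM (reads of a gene relative to the scaled library size) in early WT, from 244570 to 610139 in early Fosl-2(Tg), from 91639 to 185180 in established WT and from 3526 to 74654 CPM in established Fosl-2(Tg) mice. In established Fosl-2(Tg) against WT mice 4 of the 8 fell (*Col1a1*, *Col1a2*, *Scx* and *Tnmd*, edgeR FDR from 0.0356 to 0.0444), and their part in the results below was not tested. *Fosl2* had 88.7 ± 26.1 CPM in early WT (SD, n = 7) and 102 ± 40.5 CPM in early Fosl-2(Tg) mice (n = 8). It had 111 ± 32.7 CPM in established WT (n = 6) and 143 ± 15.8 CPM in established Fosl-2(Tg) mice (n = 7), with log2 fold changes of 0.20 (early) and 0.38 (established) that did not pass the test (edgeR, FDR = 0.918 and 0.141). The files do not separate the transgene from the endogenous gene, and all 7 established Fosl-2(Tg) mice (121 to 160.1 CPM) lay within the WT range (78.1 to 169 CPM). Skeletal muscle markers summed to between 63.4 and 21197 CPM across mice, with the highest value in an established WT mouse. Erythroid markers summed to at most 33.2 CPM outside the established Fosl-2(Tg) group and to at most 127 CPM in it. Markers of lymphocytes (at most 2.56 CPM), mast cells (at most 6.93 CPM) and adipocytes (at most 15.3 CPM) were low in all mice, and keratinocyte markers reached 32.5 CPM. The macrophage markers used for comparison were present throughout, with 18 of 18 pan-macrophage genes passing the filter on low counts in each cohort. In homogenates, fewer macrophages and less RNA per macrophage cannot be told apart.

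CPM values below were scaled together for all 28 mice (TMM), so that they can be set side by side between stages, whereas fold changes came from the fit of each cohort or of the 4 groups. Per kilobase of exon, *F13a1* (31.9 ± 8.70 CPM per kb, SD, n = 7), *Mrc1* (29.7 ± 6.21) and *Stab1* (19.8 ± 5.79) were the highest members in early WT tendon. *F13a1* and *Mrc1* differed by less than their SD. *Lyve1* (10.03 ± 3.42), *Folr2* (9.70 ± 1.63) and *Cd163* (7.63 ± 1.22) followed, of which *Lyve1* and *Folr2* did not differ beyond their SD. *Mgl2* (3.22 ± 0.473), *Siglec1* (1.52 ± 0.403), *Retnla* (1.12 ± 1.12) and *Clec10a* (0.879 ± 0.353 CPM per kb) were the lowest, and the last 3 differed by less than the SD of *Retnla*. In established Fosl-2(Tg) tendon (n = 7) the order had changed: *Retnla* averaged 91.3 ± 127 CPM per kb, with an SD above its mean, ahead of *F13a1* (42.6 ± 5.14), *Lyve1* (29.7 ± 7.43) and *Mrc1* (27.4 ± 5.62). *Lyve1* and *Mrc1* differed by less than their SD. *Cd163* (13.3 ± 2.06), *Stab1* (12.9 ± 3.38), *Folr2* (11.5 ± 3.41) and *Mgl2* (10.6 ± 9.20) lay within 1 SD of each other, and *Siglec1* (3.39 ± 1.12) and *Clec10a* (1.64 ± 0.467 CPM per kb) stayed lowest.

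**Figure D1:**
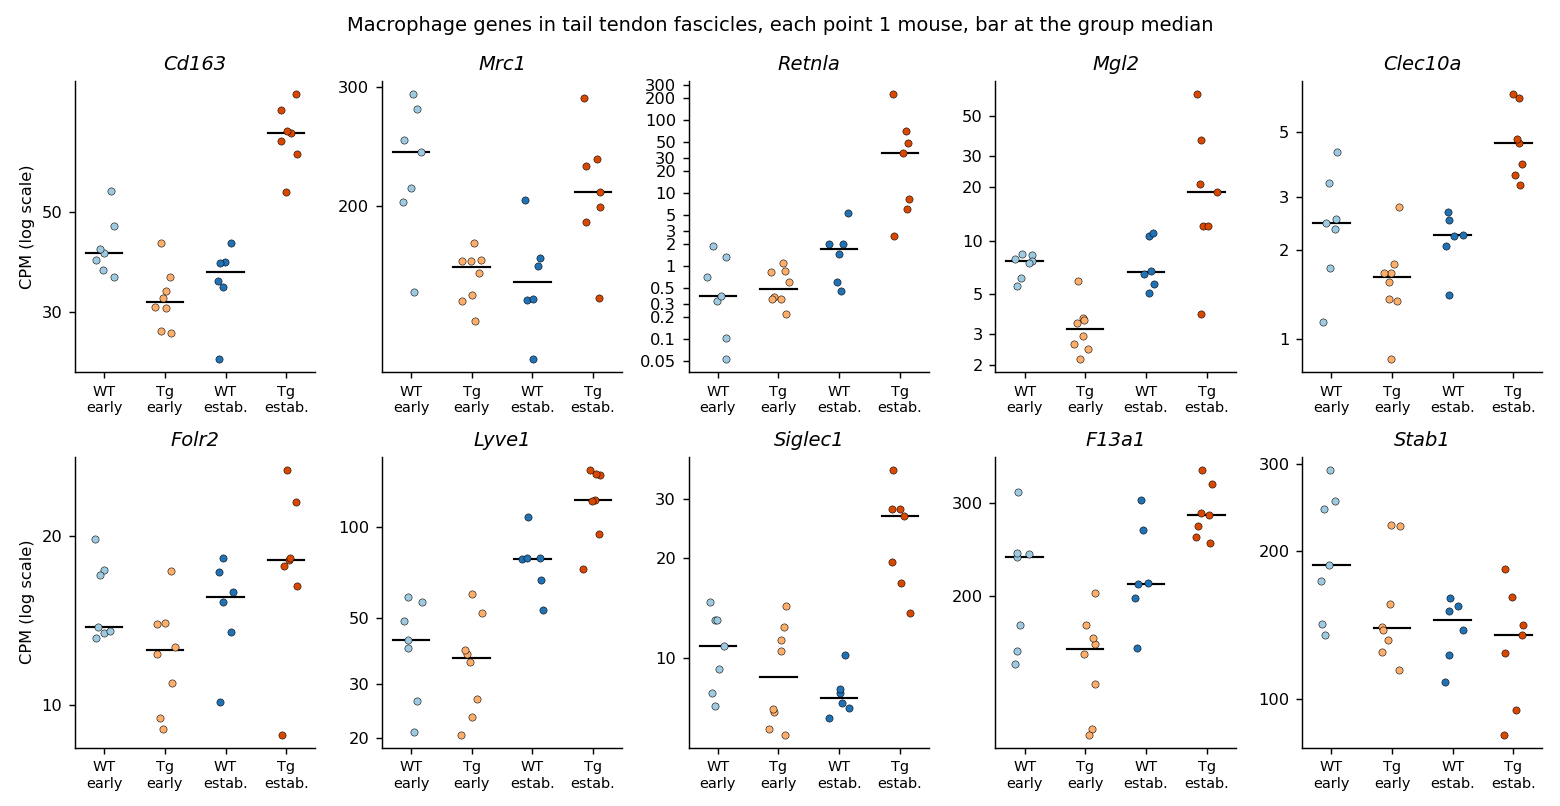
CPM (log scale) of the 10 genes in each of the 28 mice, by group, with 1 point per mouse and a bar at the group median. All established Fosl-2(Tg) mice lie above all established WT mice for *Cd163*, *Clec10a* and *Siglec1*, while *Retnla* and *Mgl2* spread most among the established Fosl-2(Tg) mice.

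At the early stage most members had lower levels in Fosl-2(Tg) than in WT tendons, and 1 of them was called. All 9 members that passed the filter on low counts had a negative log2 fold change, from -1.14 for *Mgl2* to -0.17 for *Lyve1*, with a median of -0.38, against -0.01 over all 15138 genes tested, of which 47.3% were positive. *Mgl2* was the 1 member with an FDR of at most 0.05 in this contrast (edgeR quasi-likelihood test), beside 0.033% of all genes tested called lower. Since the genes were chosen with these values known, nothing is read from that count. The call of *Mgl2* was lost in 13 of 15 fits without 1 mouse, with log2 fold changes of *Mgl2* between -1.31 and -1.07. *Mrc1* was called in 1 of these 15 fits. Skeletal muscle markers had a median sum of 1218 CPM in early WT and 5377 CPM in early Fosl-2(Tg) mice. With their level as a covariate, chosen after seeing the data, the log2 fold change of *Mgl2* was -1.08. Here 0 members were called, beside 3 of 15138 genes tested called lower.

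*Mgl2* ranged from 5.54 to 8.38 CPM in early WT mice (median 7.74) and from 2.18 to 5.92 CPM in early Fosl-2(Tg) mice (median 3.20), with a log2 fold change of -1.14 ± 0.18 (SE). Only Fosl-2(Tg) mouse 1, at 5.92 CPM, reached into the WT range, and the next Fosl-2(Tg) mouse had 3.67 CPM. *Mrc1* ranged from 150 to 293 CPM in WT (median 240) and from 136 to 177 CPM in Fosl-2(Tg) mice (median 163), with a log2 fold change of -0.56 ± 0.12. Here 6 of the 7 WT mice lay above every Fosl-2(Tg) mouse, and WT mouse 5 with 150 CPM lay among them. *Cd163* ranged from 36.0 to 55.6 CPM in WT (median 40.6) and from 27.0 to 42.6 CPM in Fosl-2(Tg) mice (median 31.6; log2 fold change -0.38 ± 0.11). Fosl-2(Tg) mouse 8, at 42.6 CPM, was the 1 of 8 to pass the WT median. *F13a1* had 149 to 315 CPM in WT (median 238) and 109 to 203 CPM in Fosl-2(Tg) mice (median 159; log2 fold change -0.51 ± 0.17), with overlapping groups.

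The remaining members overlapped widely at this stage. *Clec10a* (1.13 to 4.26 against 0.854 to 2.78 CPM, log2 fold change -0.64 ± 0.26) rested on 16 to 75 reads per mouse. *Folr2* lay at 13.1 to 19.8 CPM in WT and 9.09 to 17.3 CPM in Fosl-2(Tg) mice (log2 fold change -0.31 ± 0.14). *Stab1* lay at 135 to 292 and 115 to 226 CPM (log2 fold change -0.38 ± 0.19), *Siglec1* at 7.14 to 14.7 and 5.87 to 14.4 CPM (-0.23 ± 0.22), and *Lyve1* at 20.8 to 58.3 and 20.5 to 59.9 CPM (-0.17 ± 0.25). *Lyve1* and *Siglec1* thus differed between genotypes by about their standard error, and *Siglec1* had a log2 fold change of 0.019 with the muscle marker covariate. *Retnla* was left out by the filter: it was counted with 1 to 33 reads per mouse and had a median of 0.392 CPM in WT and 0.489 CPM in Fosl-2(Tg) mice. For no member did all early Fosl-2(Tg) mice lie below all WT mice, which 0.0462% of all genes tested did.

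At the established stage the direction was opposite for most members. 9 of 10 had a positive log2 fold change, with a median of 0.87 against 0.01 over all 15862 genes tested, and *Stab1* was the exception. An FDR of at most 0.05 was reached by 5 members, *Siglec1*, *Cd163*, *Clec10a*, *Lyve1* and *Retnla*, all higher in Fosl-2(Tg) mice, beside 3.14% of all genes tested. Groups did not overlap for *Siglec1*, *Cd163* and *Clec10a*, with every Fosl-2(Tg) mouse above every WT mouse, as for 1.48% of all genes tested. Both counts describe a list chosen on this contrast.

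Among the scavenger receptors, *Siglec1* ranged from 6.59 to 10.2 CPM in WT (median 7.56) and from 13.6 to 36.8 CPM in Fosl-2(Tg) mice (median 26.8), with a log2 fold change of 1.63 ± 0.21. Its lowest Fosl-2(Tg) value belonged to mouse 5, the male. *Cd163* ranged from 23.7 to 42.7 CPM in WT (median 36.9) and from 55.2 to 90.6 CPM in Fosl-2(Tg) mice (median 74.4), with a log2 fold change of 1.07 ± 0.14. The Fosl-2(Tg) mean was 73.9 CPM with an SD of 11.4, and the gap between the groups ran from 42.7 to 55.2 CPM. Erythroid markers, from the cells that carry hemoglobin, summed to 8.94 to 20.1 CPM in established WT and 10.3 to 127 CPM in established Fosl-2(Tg) mice, and their part in the *Cd163* difference was not tested. *Lyve1* ranged from 53.1 to 108 CPM in WT (median 78.4) and from 72.6 to 155 CPM in Fosl-2(Tg) mice (median 123; log2 fold change 0.68 ± 0.19). The ranges overlapped, and all but mice 5 and 6 of the Fosl-2(Tg) group exceeded the highest WT mouse. The call of *Lyve1* was made in 3 of 13 fits without 1 mouse and in 5 of 9 other fits. The 5 markers of lymphatic endothelium, which carries *Lyve1* too, summed to 8.73 to 40.0 CPM in WT and 4.04 to 23.7 CPM in Fosl-2(Tg) mice, and *Prox1*, a transcription factor of that cell type, fell (log2 fold change -1.67, edgeR FDR = 0.0128), with 1.25 to 3.36 CPM in WT and 0.353 to 0.913 CPM in Fosl-2(Tg) mice. The part of lymphatic endothelium in the *Lyve1* level was not tested. *Folr2* ranged from 10.1 to 18.3 CPM in WT and 8.88 to 26.2 CPM in Fosl-2(Tg) mice (log2 fold change 0.30 ± 0.20), and *Stab1* from 109 to 160.2 and 84.9 to 184 CPM (-0.07 ± 0.17). For both, the groups overlapped widely. Blood endothelium, which also can express *Stab1*, had marker sums of 21.2 to 86.2 CPM in WT and 23.1 to 67.7 CPM in Fosl-2(Tg) mice.

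Of the lectins, *Clec10a* ranged from 1.41 to 2.69 CPM in WT (median 2.23) and from 3.32 to 6.70 CPM in Fosl-2(Tg) mice (median 4.58), with a log2 fold change of 1.13 ± 0.21 on 30 to 176 reads per mouse. *Mrc1* ranged from 119 to 204 CPM in WT (median 155) and from 147 to 289 CPM in Fosl-2(Tg) mice (median 210; log2 fold change 0.45 ± 0.15). Fosl-2(Tg) mice 3, 4 and 5 lay within the WT range, and mouse 7 was highest. *Mgl2* had 6.77, 10.6, 6.50, 5.73, 5.07 and 11.02 CPM in WT mice 1 to 6, and 12.1, 12.1, 20.9, 18.8, 3.90, 36.9 and 66.3 CPM in Fosl-2(Tg) mice 1 to 7. 6 of the 7 Fosl-2(Tg) mice were above all WT mice and the male mouse 5 was below all of them, so that the log2 fold change of 1.70 carried an SE of 0.50. Fosl-2(Tg) mouse 5 also had the fewest reads of its group (9664327) and the highest muscle marker sum in it (7357 CPM). The parts of sex, depth and muscle in its levels were not tested.

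*Retnla* had the largest difference and the largest spread. Its levels were 1.46, 5.32, 0.607, 0.460, 1.98 and 2.02 CPM in WT mice 1 to 6. In Fosl-2(Tg) mice 1 to 7 they were 8.22, 6.15, 47.9, 35.4, 2.60, 70.1 and 225 CPM. The medians were 1.72 and 35.4 CPM, and the log2 fold change was 4.84 ± 1.04. 6 of 7 Fosl-2(Tg) mice exceeded the highest WT mouse, and mouse 5 lay within the WT range. Without mouse 7 the log2 fold change was 3.84, and without mice 6 and 7 it was 3.34 for *Retnla* and 0.84 for *Mgl2*, a set of mice chosen after the data were seen. Without these mice, *Siglec1* (1.53), *Cd163* (1.07), *Clec10a* (1.00) and *Lyve1* (0.80) kept log2 fold changes close to those of all mice. The same 5 members were called, beside 803 of 15928 genes tested called higher. *F13a1*, the secreted transglutaminase, ranged from 159 to 305 CPM in WT (median 211) and from 252 to 347 CPM in Fosl-2(Tg) mice (median 284; log2 fold change 0.37 ± 0.14). Its groups overlapped through WT mice 3 and 6, and platelet markers summed to 14.1 to 21.0 CPM in WT and 12.3 to 19.1 CPM in Fosl-2(Tg) mice.

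**Figure D2:**
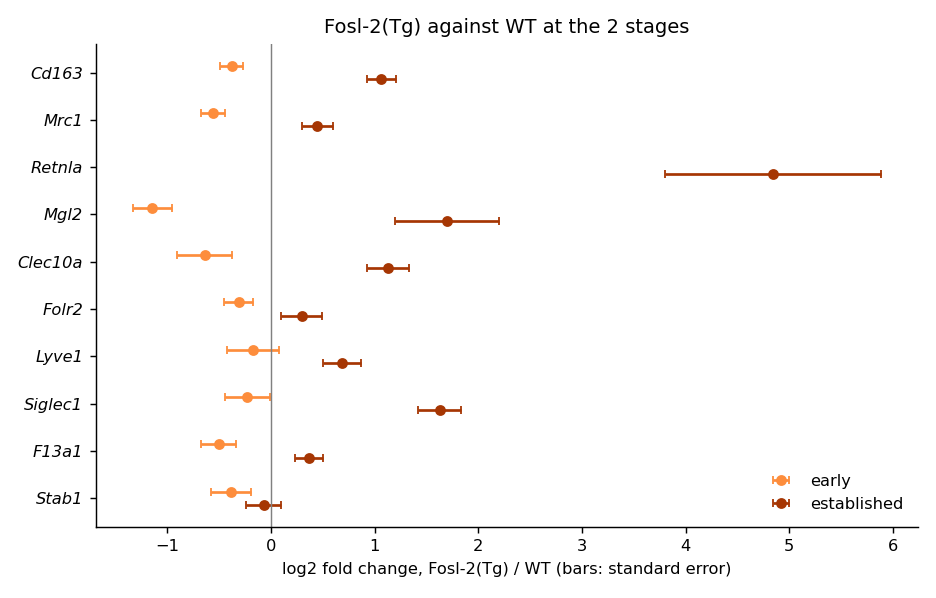
Log2 fold change of each gene between Fosl-2(Tg) and WT tendons in the early (orange) and established cohort (brown), with standard errors as bars. All 9 early values are negative (*Retnla* was not tested there), and all established values but that of *Stab1* (-0.07) are positive.

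Markers of dendritic cells, which can carry *Clec10a* and *Mgl2*, were set beside *Retnla* and *Mgl2* in the established Fosl-2(Tg) mice. The sum of the 10 dendritic cell markers ranged from 29.4 to 36.1 CPM in established WT mice (median 33.2) and from 33.7 to 432 CPM in established Fosl-2(Tg) mice (median 57.0). The highest sums were those of mice 6 (283 CPM) and 7 (432 CPM), which also had the highest *Mgl2* and *Retnla*. In Fosl-2(Tg) mice 1 to 5 the sums were 62.4, 33.7, 49.2, 57.0 and 56.1 CPM. In the same mice *Retnla* had 8.22, 6.15, 47.9, 35.4 and 2.60 CPM and *Mgl2* had 12.1, 12.1, 20.9, 18.8 and 3.90 CPM. Most of the sums of mice 6 and 7 was *Cd74*, the invariant chain of MHC class II, with 188 and 306 CPM. *H2-Ab1* (42.6 and 77.5 CPM) and *Itgax* (3.52 and 14.5 CPM), named after their values were seen, were also highest in mice 6 and 7. Of the 10 markers 5 were tested, and 4 of these had positive log2 fold changes in the established cohort. *Cd74* was called by edgeR (3.89 ± 1.08, FDR = 0.0473), and DESeq2 called 5 of the 10. *Clec9a* had 3.46 to 14.6 CPM in WT and 6.66 to 35.6 CPM in Fosl-2(Tg) mice, *Ciita* 2.04 to 3.05 and 2.45 to 13.7 CPM, and *Zbtb46* 10.1 to 15.0 and 12.3 to 14.1 CPM. *Flt3* (at most 0.65 CPM) and *Xcr1* (at most 0.0722 CPM) were at or near 0 in all established Fosl-2(Tg) mice, and also in the other groups. The part of dendritic cells in the *Retnla* and *Mgl2* levels was not tested.

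The difference between the genotype effects of both stages was positive for all 10 members in a fit of the 4 groups. It was 1.44 ± 0.18 on the log2 scale for *Cd163*, 1.85 ± 0.31 for *Siglec1*, 1.76 ± 0.35 for *Clec10a*, 2.83 ± 0.53 for *Mgl2*, 5.07 ± 1.21 for *Retnla*, 1.00 ± 0.19 for *Mrc1* and 0.87 ± 0.23 for *F13a1*. These 7 had an FDR of at most 0.05, beside 3.43% of all 16082 genes tested. *Lyve1* (0.86 ± 0.33), *Folr2* (0.60 ± 0.25) and *Stab1* (0.30 ± 0.27) did not. The list was made with the direction at both stages in view, so the count is a description. For *Mrc1* and *F13a1* this difference combined a lower early and a higher established level. Neither level was called on its own in the edgeR fit of all mice of the cohort with the filter, TMM scaling and no covariate. DESeq2 called *Mrc1* at both stages, and *F13a1* was called at neither stage in any fit run.

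To set these genes beside macrophage RNA in general, each gene was taken relative to the mean log2 CPM of 18 pan-macrophage markers in the same mouse. In the established cohort, 2 of the markers were themselves called, *Ctss* (log2 fold change 1.13) and *Cx3cr1* (-1.81). The mean of the 18 is thus not free of genotype differences, and a full separation from macrophage RNA is not shown. That mean was 5.12 ± 0.26 in early WT (SD, n = 7) and 4.73 ± 0.24 in early Fosl-2(Tg) mice (n = 8). In the established cohort it was 4.68 ± 0.26 in WT (n = 6) and 4.73 ± 0.31 in Fosl-2(Tg) mice (n = 7). At the early stage, the pan-macrophage markers were thus lower by about as much as the members, and relative to them *Cd163* differed between genotypes by 0.01 (pooled SD 0.31), *Stab1* by 0.02 (0.30), *Folr2* by 0.07 (0.19) and *F13a1* by -0.10 on the log2 scale (0.36). *Mrc1* (-0.14, pooled SD 0.27), *Clec10a* (-0.19, 0.49), *Siglec1* (0.14, 0.32) and *Lyve1* (0.21, 0.53) also stayed within 1 pooled SD. *Mgl2* alone differed by more than that, by -0.77 (pooled SD 0.28), and *Retnla* by 0.59 (1.17). At the established stage the relative differences were 1.51 for *Siglec1* (pooled SD 0.38), 1.02 for *Cd163* (0.31), 1.02 for *Clec10a* (0.31), 0.62 for *Lyve1* (0.42) and 0.39 for *Mrc1* (0.16). The relative level of *Cd163* lay between 0.20 and 0.71 in WT and between 0.92 and 1.94 in Fosl-2(Tg) mice, and that of *Mrc1* between 2.45 and 2.74 in WT and between 2.77 and 3.37 in Fosl-2(Tg) mice. Like those of *Clec10a* and *Siglec1*, these ranges did not overlap, though for *Mrc1* the gap ran only from 2.74 to 2.77. The members were chosen on this genotype contrast, and the share of all genes without overlap was not counted for relative levels, so nothing is read from it. *Retnla* differed by 3.86 (1.65), *Mgl2* by 1.23 (0.82), *F13a1* by 0.34 (0.30), *Folr2* by 0.20 (0.27) and *Stab1* by -0.15 (0.29). *Folr2* and *Stab1* thus followed the macrophage markers within 1 SD at both stages. With *Csf1r*, *Adgre1* and *Cd68* alone as the reference, the established differences were smaller, at 0.23 for *Mrc1*, 0.86 for *Cd163*, 0.87 for *Clec10a*, 1.36 for *Siglec1* and 0.46 for *Lyve1*.

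**Figure D3:**
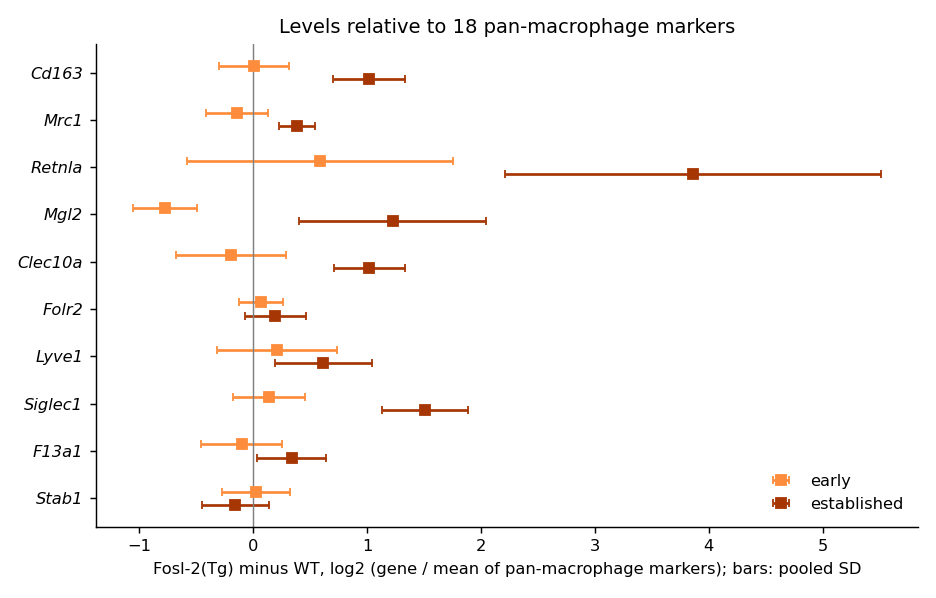
Difference between Fosl-2(Tg) and WT tendons in the log2 level of each gene relative to the mean of 18 pan-macrophage markers in the same mouse, early (orange) and established (brown), with the pooled SD as bars. Most early values lie within 1 pooled SD of 0, whereas *Cd163* (1.02) and *Siglec1* (1.51) lie far from 0 in the established cohort.

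The genes were not chosen on the stage contrast within WT mice. Its WT levels entered the genotype contrasts used for the choice, though, so it is no independent test. Sex also changed along with stage. *Lyve1* rose, with 41.8 ± 14.2 CPM in early WT (SD, n = 7) and 77.3 ± 18.1 CPM in established WT mice (n = 6), with a log2 fold change of 0.89 ± 0.24 (SE; edgeR FDR = 0.0300). *Mrc1* fell, with means of 232 ± 48.6 and 158 ± 28.5 CPM (log2 difference -0.56 ± 0.14, edgeR FDR = 0.0202). All 18 pan-macrophage markers had negative log2 fold changes in this contrast too (median -0.41), and relative to their mean *Mrc1* was at 2.71 in early and 2.60 in established WT mice. The 4 lymphatic markers tested all had positive ones (median 0.54, 0 called by edgeR, 0 at an unadjusted p under 0.05, 0 by DESeq2), with sums of 6.34 to 12.8 CPM in early and 8.73 to 40.0 CPM in established WT mice. Their parts in the *Mrc1* and *Lyve1* levels were not tested. The 2 calls were 1 member higher and 1 lower of 10, beside 2.33% and 3.48% of all genes tested. Leaving out established WT mouse 3 ended both calls. That of *Mrc1* was also lost without established WT mouse 4, and that of *Lyve1* without established WT mouse 5 or early WT mouse 4, 5 or 6, with log2 fold changes of -0.66 to -0.49 and 0.76 to 0.99 over all such fits. The other 8 members did not pass the test, with log2 fold changes from -0.55 (*Stab1*, FDR = 0.0936) to 1.49 (*Retnla*, SE 0.84, FDR = 0.3002), and *Mgl2* (0.04), *Folr2* (-0.04) and *F13a1* (0.06) near 0. In WT tendon, *Cd163* (-0.26), *Siglec1* (-0.46) and *Clec10a* (-0.20) were thus not higher at the established stage.

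In Fosl-2(Tg) mice, 9 of 10 members had an FDR of at most 0.05 and were higher at the established stage, beside 25.8% of all genes tested, so the count stands against a high background. The log2 fold changes were 6.57 ± 0.84 for *Retnla*, 2.87 ± 0.37 for *Mgl2*, 1.75 ± 0.23 for *Lyve1*, 1.56 ± 0.24 for *Clec10a* and 1.39 ± 0.21 for *Siglec1*. They were 1.18 ± 0.12 for *Cd163*, 0.93 ± 0.16 for *F13a1*, 0.56 ± 0.17 for *Folr2* and 0.44 ± 0.13 for *Mrc1*, while *Stab1* had -0.25 ± 0.18. This contrast shares its mice with the genotype contrasts on which the list was chosen, and the low early and high established levels in Fosl-2(Tg) mice enter both. For *Lyve1* the levels were higher at the established stage in both genotypes, and for *Mrc1* the direction was opposite in WT and Fosl-2(Tg) mice.

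**Figure D4:**
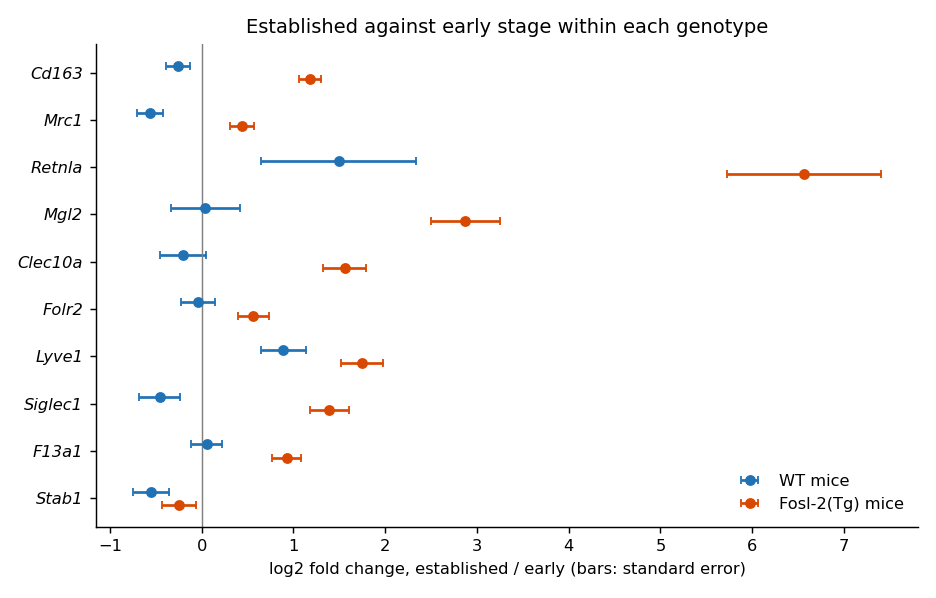
Log2 fold change of each gene between the established and the early stage within WT (blue) and within Fosl-2(Tg) mice (orange), with standard errors as bars. *Lyve1* is positive in both genotypes, and *Mrc1* lies at -0.56 in WT and 0.44 in Fosl-2(Tg) mice.

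The stated choice of the members rested on genotype differences and not on how they varied between mice of the same group. Earlier results of these data were already known then, so independence from the choice is not shown. Log2 CPM was centred on the mean of each group, and the 45 pairs of members were correlated over the 28 mice, with p-values from 100000 permutations of the mice within groups (two-sided) adjusted over the 45 pairs. Pearson's r ranged from -0.18 to 0.76 with a median of 0.28. It passed an adjusted p of 0.05 in 8 pairs, all positive, and in 6 of these Spearman's rho passed as well. The share of pairs of other genes that would pass was not counted, so nothing particular to the members is read from these counts. *Retnla* and *Mgl2* had r = 0.76 (adjusted permutation p = 0.0021) and rho = 0.69 (adjusted p = 0.00698). Without the 2 mice farthest from the median of *Retnla*, r was 0.56. The established Fosl-2(Tg) mice took nearly the same order for both genes, from mouse 5 as the lowest to mice 4, 3, 6 and 7 at the top. *Siglec1* and *Stab1* had r = 0.70 (adjusted permutation p = 0.00281; rho = 0.70, adjusted p = 0.00405), and 0.64 without the 2 mice farthest from the median of *Siglec1*. *F13a1* went with *Mrc1* (r = 0.67, adjusted permutation p = 0.0021; rho = 0.69, adjusted p = 0.00405), with *Lyve1* (r = 0.62, adjusted permutation p = 0.0134; rho = 0.69, adjusted p = 0.00405) and with *Folr2* (r = 0.60, adjusted permutation p = 0.0021; rho = 0.62, adjusted p = 0.00891). Without the 2 mice farthest from the median of *Mrc1*, *Lyve1* and *Folr2*, in turn, these were 0.67, 0.62 and 0.60. Mice far from the median of *F13a1* were not left out. *Clec10a* and *Siglec1* had r = 0.55 (adjusted permutation p = 0.0357; rho = 0.60, adjusted p = 0.015), and 0.46 without the 2 mice farthest from the median of *Clec10a*. *Mgl2* and *Folr2* (r = 0.64, 0.38 without the 2 mice farthest in *Mgl2*) and *Cd163* and *F13a1* (r = 0.51, 0.33 without the 2 farthest in *Cd163*) passed by r and not by rho. *Retnla* and *Siglec1*, both high in established Fosl-2(Tg) mice, had r = -0.11 (adjusted permutation p = 0.807; rho = -0.25, adjusted p = 0.47), and -0.45 without the 2 mice farthest in *Retnla*. The points share library depth and tissue composition.

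**Figure D5:**
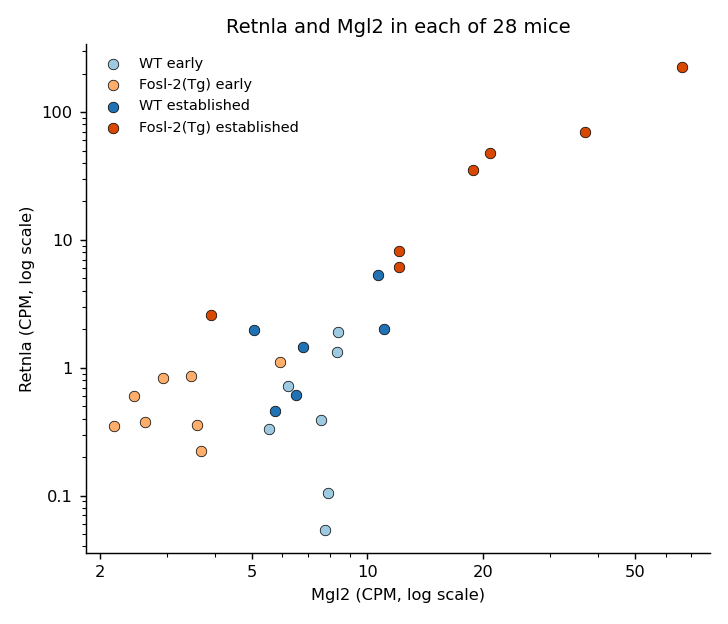
*Retnla* against *Mgl2* in each of the 28 mice (CPM, both axes on a log scale), coloured by group. In established Fosl-2(Tg) mice both genes span a wide range, from mouse 5 (3.90 CPM of *Mgl2*, 2.60 CPM of *Retnla*) to mouse 7 (66.3 and 225 CPM), whereas early Fosl-2(Tg) mice lie at low levels of both.

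The genes whose group-centred levels were most like the mean of the 10 members, among 14573 genes with a mean of at least 1 CPM, were *Adgre1* (r = 0.87 over 28 mice), *Gatm* (0.86), *Gm49368* (0.83), *Itgam* (0.83), *Ptpn7* (0.81), *Nrros* (0.80), *Msrb2* (0.80), *Lcp1* (0.80), *Itgb2* (0.80) and *Gm21970* (0.80). *Adgre1*, which encodes the macrophage antigen F4/80, and *Itgam*, which encodes CD11b, belong to the pan-macrophage markers. *Itgb2* encodes the integrin chain that pairs with CD11b, and *Lcp1* an actin-bundling protein of leukocytes. These values rank likeness and carry no test.

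The other macrophage genes were taken from 7 lists with 109 genes. In the early cohort 76 were tested and 0 were called by edgeR, with 25 at an unadjusted p under 0.05. DESeq2 called 2 (*Adgre1* and *Nrp1*), and 1 (*Adgre1*) was called with the replicate number as a block, though the labels do not say what the numbers mark. All 18 pan-macrophage genes had negative log2 fold changes (median -0.41), among them *Csf1r*, the receptor on which macrophages depend (-0.46 ± 0.17), the complement gene *C1qc* (-0.35 ± 0.14) and the lysozyme gene *Lyz2* (-0.21 ± 0.13). In the established cohort the median of these 18 was 0.09, with *Lyz2* at 0.40 ± 0.21 and *Csf1r* at 0.19 ± 0.12, neither called. Of the 7 lists together, 78 genes were tested there and 6 were called, 3 higher (beside 3.14% of all genes tested) and 3 lower (beside 3.37%).

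The 3 higher genes were *Ctss*, *Arg1* and *Socs3*. *Ctss*, the lysosomal protease cathepsin S, rose, with 31.3 to 56.5 CPM in WT and 57.9 to 174 CPM in Fosl-2(Tg) mice, without overlap (log2 fold change 1.13 ± 0.25, edgeR FDR = 0.0228). *Arg1*, the arginase that is a further marker of alternative activation in mice, rose, with 1.73 to 2.95 CPM in WT and 3.18 to 33.5 CPM in Fosl-2(Tg) mice, also without overlap (1.95 ± 0.52, edgeR FDR = 0.0422). Its highest value was in mouse 7, as for *Retnla* and *Mgl2*, and the log2 fold change was 1.22 without mice 6 and 7. *Socs3*, a feedback inhibitor of cytokine signalling, rose by 0.67 ± 0.18 on the log2 scale (edgeR FDR = 0.0415). Of the 13 fits without 1 mouse, *Ctss* was called in 11, *Arg1* in 5 and *Socs3* in 3. The 3 lower genes were *Cx3cr1*, *Il34* and *Nr3c1*. *Cx3cr1*, the fractalkine receptor, fell, with 3.05 to 7.73 CPM in WT and 0.577 to 2.62 CPM in Fosl-2(Tg) mice, without overlap (log2 fold change -1.81 ± 0.28, edgeR FDR = 0.00804). *Il34*, a ligand of the CSF1 receptor, fell by 0.90 on the log2 scale (SE 0.20, edgeR FDR = 0.0256), and *Nr3c1*, the glucocorticoid receptor, by 0.34 (SE 0.09, edgeR FDR = 0.0371). *Cx3cr1* was called in 13 of the 13 fits without 1 mouse, *Il34* in 8 and *Nr3c1* in 6.

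By list, the other alternative-activation genes had 1 of 13 tested called higher in the established cohort (*Arg1*; median log2 fold change 0.44). Their most abundant members were *Klf4* (257 ± 60.5 CPM in established Fosl-2(Tg), n = 7), *Slc7a2* and *Tgm2* (18.9 ± 8.88 CPM). *Slc7a2*, an arginine transporter, had 56.9 to 85.7 CPM in WT and 49.0 to 627 CPM in Fosl-2(Tg) mice, with the highest value in mouse 7 and a log2 fold change of 1.34 ± 0.51 that did not pass the test (edgeR FDR = 0.118). *Chil3*, another classical alternative-activation gene, named after its values were seen, was at or near 0 in all groups, with at most 0.609 CPM. The other scavenger genes had 0 of 20 called by edgeR (4 at an unadjusted p under 0.05, 4 by DESeq2), with *Axl*, *Gas6* and *Colec12* the most abundant. In the IL-4 and IL-13 axis, 0 of 11 tested genes were called by edgeR (1 at an unadjusted p under 0.05, 0 by DESeq2). The ligands *Il4* and *Il13*, named after their values were seen, had 1.18 ± 0.200 and 0.452 ± 0.0928 CPM in established WT (n = 6) and 1.31 ± 0.318 and 0.437 ± 0.0830 CPM in established Fosl-2(Tg) mice (n = 7). *Stat6* was at 118 ± 10.7 and 122 ± 15.1 CPM, and *Jak1* at 229 ± 18.4 and 217 ± 11.4 CPM. The IL-10 and glucocorticoid axis had *Socs3* higher and *Nr3c1* lower of 5 tested, and the CSF1 axis *Il34* lower of 4. *Csf1* itself had 202 ± 30.9 CPM in established WT and 226 ± 45.6 CPM in established Fosl-2(Tg) mice. Of the monocyte and inflammatory genes, 0 of 7 were called by edgeR (2 at an unadjusted p under 0.05, 1 by DESeq2). *Ccr2*, the monocyte chemokine receptor, had the highest log2 fold change among them (2.44 ± 0.82, edgeR FDR = 0.0853), with 0.607 to 5.59 CPM in WT and 1.01 to 34.9 CPM in Fosl-2(Tg) mice.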

How the data were processed

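Bulk RNA-sequencing of tail tendon fascicles was analysed in 28 mice, grouped by the genotype and stage in the labels. The libraries were rRNA-depleted. The authors aligned reads to GRCm39 (GENCODE release M26) with STAR and used featureCounts for the genes, and the deposited files hold raw, unnormalized counts. The strand setting and the treatment of multi-mapping reads are not given in the sources used here. Per the submitters' processing notes, DESeq2 was the authors' tool for differential expression. Of 25719 genes, 25473 were named with GENCODE release M39 and 3396 had no read.

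Counts were filtered with filterByExpr (minimum count 10), scaled with TMM and compared with the quasi-likelihood test of edgeR 4.0.16 in R 4.3.3, within each cohort for the genotypes and in 1 fit of the 4 groups for the stage contrasts and the interaction. No covariate was used. P-values were adjusted with Benjamini-Hochberg over all genes tested, and called genes had an FDR of at most 0.05. A prior count of 2 entered log2 CPM. The labels give each library as 1 mouse, and no 2 libraries of a group were alike (lowest chi-square per degree of freedom 7.08 over 85 pairs). Replicate numbers are shared between genotypes. In the early cohort all 7 same-numbered pairs deviated together (correlation 0.129 to 0.363), and in the established cohort 4 of 6 did (-0.223 to 0.688). Mice with different numbers were not compared, so these correlations cannot show that the numbers mark a pairing. The fits were tested on simulated data. Precision rests on the spread between the mice of a group and on library depth, which ranged from 9645598 to 66894396 counts. Figures were drawn with matplotlib 3.10.9.

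The members and all gene lists were chosen with earlier results of these data known. Other genes named are those of the lists with an FDR of at most 0.05 in a genotype contrast (at most 6 per list and stage), the most abundant genes of the macrophage lists, *Fosl2* and the 10 genes most like the members, with exceptions stated in the text. Alternatives were DESeq2 1.42.0, RLE scaling, no filter, scaling without muscle, erythroid and keratinocyte genes, females only in the established groups, a replicate block, all 28 mice in 1 fit, only the 2 groups compared and each mouse left out in turn. For levels relative to the pan-macrophage markers, *Csf1r*, *Adgre1* and *Cd68* alone and a prior count of 0.5 were tried. The level of muscle markers as a covariate, and the established Fosl-2(Tg) mice 6 and 7 left out together, were chosen after seeing the data.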

Additional observations from a re-analysis of the deposited data

Results flagged for a closer look

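Of 40 groups of values of the 10 members, 3 held a mouse whose distance to the others was above the critical value of Dixon's test at 95%, and chance gives about 1 in 20 such groups. *Retnla* had 225 CPM in established Fosl-2(Tg) mouse 7, and 5.32 CPM in established WT mouse 2. *Mgl2* had 5.92 CPM in early Fosl-2(Tg) mouse 1. The difference between the genotype effects of the stages had an FDR of at most 0.05 (edgeR) in 7 members. The list was made with the direction at both stages known, so these values restate the choice and are no independent test. They were 1.44 on the log2 scale for *Cd163*, 1.76 for *Clec10a*, 0.87 for *F13a1*, 2.83 for *Mgl2*, 1.00 for *Mrc1*, 5.07 for *Retnla* and 1.85 for *Siglec1*. With the replicate block *Retnla* was no longer called (FDR = 0.0836).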

How the results depend on the processing

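The number of members called lower in the early cohort, 1, became 2 with DESeq2 (*Mgl2* and *Mrc1*), 0 with all 28 mice in 1 fit, 0 with the muscle marker covariate (chosen after seeing the data), 1 with the replicate block and 0 to 1 with 1 mouse left out. Of the 15 fits without 1 mouse, *Mgl2* was called in 2 and *Mrc1* in 1. *Siglec1* had a log2 fold change of 0.019 with the muscle covariate. Over all genes tested, the 5 called lower in the early cohort became 23 with DESeq2 and 7 with all 28 mice. They were 3 with the muscle covariate and 9 with the replicate block. Of the other macrophage genes, DESeq2 called 2 in the early cohort, the replicate block 1, and fits without 1 mouse 0. In the established cohort the 5 called members became 7 with DESeq2 (adding *Mgl2* and *Mrc1*), 7 with the muscle covariate, 3 with the replicate block (*Siglec1*, *Cd163* and *Clec10a*) and 3 (without WT mouse 1) to 6 (without Fosl-2(Tg) mouse 5) with 1 mouse left out. Over all genes tested, the 498 called higher became 1045 with DESeq2, 759 with the muscle covariate and 392 with the replicate block. They were 176 without WT mouse 1 and 442 without Fosl-2(Tg) mouse 5. The member counts are thus not read as particular to these genes. *Siglec1*, *Cd163* and *Clec10a* were called in every fit run, *Retnla* in 12 of the 13 fits without 1 mouse and *Lyve1* in 3. Of the 9 other fits, *Lyve1* was called in 5, *Mgl2* in 4 and *Mrc1* in 3. *Stab1* reversed to 0.039 with females only and ranged from -0.16 to 0.016 without 1 mouse (positive without Fosl-2(Tg) mouse 3). The other macrophage genes called there, 6, became 12 with DESeq2, 3 with females only, 10 with all 28 mice, 10 with the muscle covariate, 8 without Fosl-2(Tg) mice 6 and 7, and 1 (without WT mouse 1 or 4) to 7 without 1 mouse. Over all genes tested, 498 higher and 534 lower calls became 1045 and 1132 with DESeq2 and 201 and 359 with females only. They were 731 and 932 with all 28 mice, 759 and 947 with the muscle covariate, and 803 and 788 without mice 6 and 7. *Cd74* and *Nr3c1* were no longer called without mice 6 and 7. For the WT stage contrast the 2 called members became 1 with only the 2 groups compared and 0 to 2 without 1 mouse. Over all genes tested, 375 higher and 560 lower calls became 310 and 432 with only the 2 groups compared. Near-0 log2 fold changes changed sign there without 1 mouse, ranging from -0.087 to 0.14 for *Mgl2*, from -0.10 to 0.053 for *Folr2* (0.0044 with the replicate block) and from -0.050 to 0.17 for *F13a1*. The interaction count was 7 to 8 without 1 mouse and 6 with the replicate block, which ended the call of *Retnla*. Over all genes tested, the 551 positive interaction calls became 859 with the replicate block. Between stages in Fosl-2(Tg) mice 9 members were called, and 8, without *Mrc1*, once mice 6 and 7 were left out. Over all genes tested, the 4151 higher calls then became 3834. The replicate block changed no call of a member in the early cohort or between stages. Levels relative to the pan-macrophage markers moved by less than 1 SD with 3 markers as the reference or a prior count of 0.5. The causes were not tested. Depth limits *Retnla* and *Clec10a* in the early cohort.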
